A study of Mus musculus with 4 samples.

Results

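The 82 protein-coding mouse genes that encode cytosolic ribosomal proteins of the Rpl, Rplp and Rps families were chosen by symbol and gene type alone, out of 35427 genes matched in the files. They comprised 51 genes of the large subunit and 31 of the small subunit. PolyA RNA was sequenced after a ribosome pulldown from the hippocampus. The mice were C57BL/6J, 4 months old, of the line P2RY12CreER x Rpl22HA RiboTag. In this line a Cre that is inducible and driven from the microglial gene P2ry12 switches on a tagged copy of Rpl22, itself one of the 82 genes. Both groups carried these alleles and were fear conditioned, a training that pairs a place or cue with a shock. Sleep was then allowed for 6 h in the control group and prevented for 6 h in the sleep-deprived group. Each deposited file pooled 2 mice, each group had 2 files, and the design text calls the files technical replicates. Groups were read from the sample titles, since the treatment label names sleep deprivation for control files too.

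Within a group the 2 files were closer than counting noise allows for separate libraries. Chi-square divided by its degrees of freedom, over genes averaging 20 reads or more, came to 0.335 for the control pair, to 0.207 for the sleep-deprived pair, and to between 73.8 and 73.9 for files of opposite groups. The 2 files were therefore averaged and counted as 1 sample (n = 1 per group), and no p-value is given. The files held between 14431647 and 14877011 estimated reads. Ratios divide the sleep-deprived by the control level, and bracketed ranges are their exact 95% intervals. These cover counting error alone and hold nothing about differences between mice or pulldowns. CPM are estimated reads scaled to a common library size (TMM factors). A gene is called lower or higher when its CPM differed by at least 2-fold and the interval excluded 1. A gene that passed the filter on low counts is called measured.

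The labelled cell type was checked against its markers. The microglial list had 14 of 18 genes called higher and 0 lower, and its sum was 239 CPM in control against 800 CPM after sleep deprivation. Markers of other cells were present at higher sums. Neuronal markers (0 of 10 called) totalled 3456 CPM in control against 2851, those of astrocytes (3 of 9 lower) 2086 against 1267, and those of oligodendrocytes (2 of 9 lower) 3603 against 2247. Endothelial markers (0 of 6 called) totalled 158.5 against 154.9 CPM, and erythroid ones (2 of 5 lower) 195 against 127. None of these markers was at 0 in any file. Ribosomal protein genes are expressed in each of these cell types, so the values below cannot be assigned to microglia. The part of these marker differences in the ribosomal protein results was not tested. In RNA pulled down from pooled tissue, fewer cells of a type, less RNA per cell and a difference between pulldowns cannot be told apart.

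The cytosolic ribosome consists of a small subunit, which reads the message, and a large subunit, which joins amino acids and holds the exit tunnel of the new chain. Each of its proteins is needed in about equal number, and their messages are among the most abundant in a cell. Many of these messages begin with a run of pyrimidines, the 5′ terminal oligopyrimidine (TOP) tract, through which mTOR signalling and the protein LARP1 control their translation. Several ribosomal proteins also act on the splicing of their own messages, so that a retained intron or a decayed splice form limits their supply.

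Messages of ribosomal proteins took a smaller part of the sleep-deprived library. The 82 genes held 0.955% and 0.956% of gene reads in the control files and 0.505% and 0.506% in the sleep-deprived files. Their summed level was 9392 CPM in control against 5148 CPM after sleep deprivation, a ratio of 0.548 (0.543 to 0.553). Of the 82 genes 80 were measured, while Rpl10l and Rpl39l had at most 1 read in any file. Among the measured genes 23 of 80 (28.8%) were called lower, against 5.65% of the 14907 measured genes. None of the 80 was called higher, against 4.24% of measured genes. The ratio was below 1 in 73 of 80, against 50.8% of measured genes, and the counting interval lay wholly below 1 in 70, against 30.5%. The median log2 ratio was −0.72 with quartiles at −1.03 and −0.45, beside a median of −0.01 over all measured genes.

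**Figure D1:**
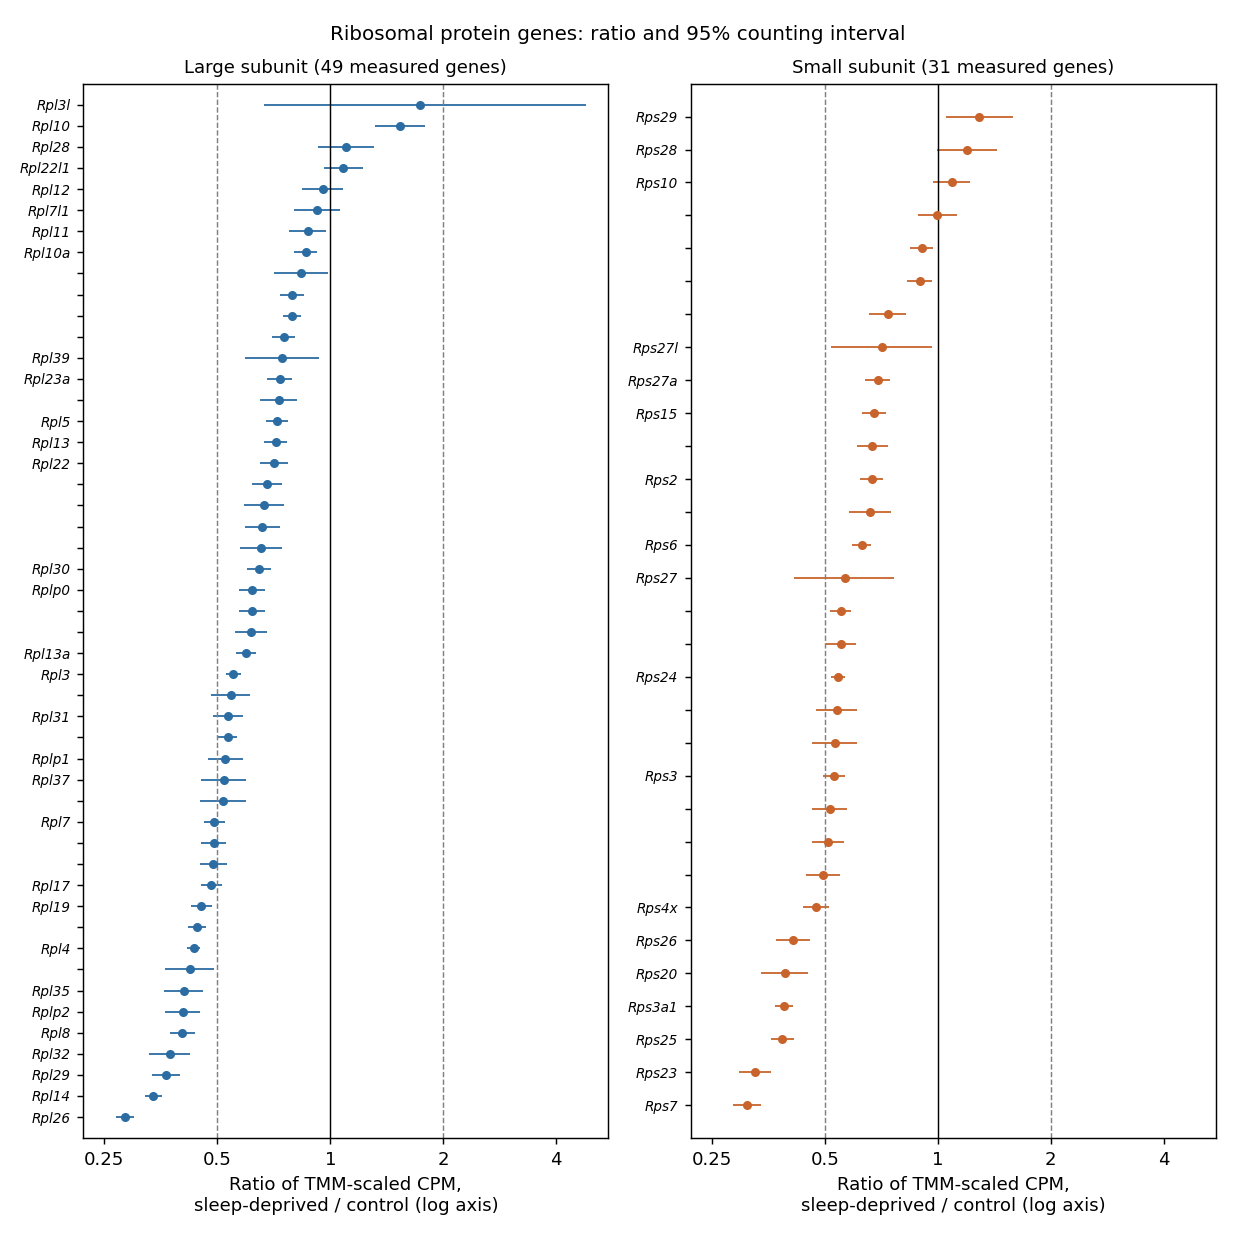
Ratio of TMM-scaled CPM, sleep-deprived over control, for the 49 measured large-subunit genes and the 31 small-subunit genes, with 95% counting intervals on a log axis and 1 row per gene. Genes described in the text are labelled. The dashed lines mark 2-fold in either direction, and 73 of the 80 points lie left of 1.

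The large and the small subunit were lower to a like extent in these libraries. The large subunit had 15 of 49 measured genes called lower and a median log2 ratio of −0.69. Its summed level was 6062 and 3283 CPM, a ratio of 0.541 (0.535 to 0.548). The small subunit had 8 of 31 called lower and a median of −0.86. Its sum was 3330 and 1865 CPM, a ratio of 0.560 (0.552 to 0.568). By the median the small subunit was lower and by the sum the large subunit was lower, so no order between the subunits can be read.

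In the large subunit the lowest ratio belonged to Rpl26 (ENSMUSG00000060938, chr11:68901583-68906989, plus strand, GRCm38), whose protein sits beside the exit of the tunnel. It had 5930 and 5908 estimated reads in the control files and 1574 and 1578 in the sleep-deprived files, a ratio of 0.283 (0.268 to 0.2996). Both sleep-deprived files were far below both control files. Rpl14 followed, with 5897 reads in each control file and 1870 and 1875 in the sleep-deprived files, a ratio of 0.338 (0.321 to 0.356). Rpl29 had 2138 and 2121 control reads and 733 and 727 sleep-deprived reads (0.365, 0.335 to 0.397). Its call was lost, at 0.633, when reads of genes sharing sequence with it were added, nearly all of them from the gene Uimc1. The count of Rpl32 was 989 and 983 in control and 347 and 344 after sleep deprivation (0.373, 0.329 to 0.423). Rpl8 had 2462 and 2470 reads against 933 and 936 (0.403, 0.373 to 0.435). For each of these 5 genes the files of a group differed little beside the gap between the groups. Since these files count as 1 sample, their closeness is no replication of that gap.

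Among the position lists of the large subunit, that of the exit tunnel and its rim had the most calls. Of its 8 genes (Rpl4, Rpl17, Rpl19, Rpl23a, Rpl26, Rpl31, Rpl35 and Rpl39) 5 were called lower. This stands against 15 of the 49 measured large-subunit genes and 5.65% of all measured genes. Their median log2 ratio was −1.10 and their summed ratio 0.432 (0.422 to 0.442). The lists hold only some large-subunit genes and were chosen with earlier results known, so no link with position can be read. Rpl4, whose extension lines the tunnel, had 7672 and 7675 reads in control and 3126 and 3109 after sleep deprivation, a ratio of 0.432 (0.414 to 0.451). The stalk, which recruits elongation factors, had 1 of 4 genes called lower. This was Rplp2, with 1229 and 1222 control reads and 463 and 466 sleep-deprived reads (0.404, 0.362 to 0.450). Its partner Rplp1 had a ratio of 0.526 (0.473 to 0.584), the scaffold Rplp0 one of 0.620 (0.572 to 0.671) and the stalk-base gene Rpl12 one of 0.954 (0.841 to 1.08). Rpl5 and Rpl11, which form a particle with 5S rRNA and can bind Mdm2, had ratios of 0.721 (0.674 to 0.771) and 0.870 (0.777 to 0.974), and neither was called. With the reads of near-identical copies added they were at 0.577 (0.550 to 0.605) and 0.532 (0.484 to 0.583), again not called.

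In the small subunit Rps7 (ENSMUSG00000061477, chr12:28630854-28635953, minus strand, GRCm38) had the lowest ratio. Its reads were 2258 and 2301 in control and 619 and 712 after sleep deprivation, a ratio of 0.311 (0.284 to 0.339). Rps23, whose protein reaches into the decoding centre, had 1643 and 1810 control reads and 562 and 496 sleep-deprived reads (0.326, 0.295 to 0.360). Rps25, known for its part in initiation at internal entry sites, had 2989 and 2991 against 1086 and 1081 (0.385, 0.359 to 0.413). For these genes the lowest control file was at least 2 times the highest sleep-deprived file, though files of a group are not independent replicates. Rps3a1 had 4451 and 4434 reads against 1633 and 1621 (0.390, 0.368 to 0.413), and Rps20 had 753 and 693 against 272 and 260 (0.391, 0.339 to 0.451). With near-identical copies added Rps7 was at 0.396 (0.366 to 0.427), above Rps23 at 0.380 and Rps25 at 0.384. Each stayed called lower, but the order of the lowest genes did not hold.

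Around the path of the message, 1 of the 4 measured genes at the entry and decoding side was called lower, Rps23. The others were Rps3 at 0.530 (0.496 to 0.566), Rps2 at 0.668 (0.623 to 0.716) and Rps15 at 0.677 (0.631 to 0.726). On the exit side Rps26 was called lower at 0.411 (0.370 to 0.456), while Rps28 was at 1.20 (0.996 to 1.44). Of the 10 genes listed for Diamond-Blackfan anemia, an inherited failure of red cell production caused by ribosomal protein loss, 3 were called lower (Rpl26, Rps7 and Rps26). The share called lower was 28.8% over the 80 measured ribosomal protein genes and 5.65% over all measured genes. The median log2 ratio of the 10 genes was −0.79, beside −0.72 over the 80, so the list did not stand apart from the family.

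The 7 measured genes above 1 were Rpl3l, Rpl10, Rpl28, Rpl22l1, Rps28, Rps29 and Rps10, and none reached 2-fold. Not all of these directions held: Rpl28 was at 0.871 and Rpl22l1 at 0.823 with a length offset, which corrects for shifts between long and short forms of a gene, and Rpl28 at 0.905 and Rpl10 at 0.678 with near-identical copies added. Rpl10, which completes the large subunit late in its maturation, had 306 and 285 reads in control and 441 and 409 after sleep deprivation, a ratio of 1.53 (1.32 to 1.78). The difference lay in its retained-intron transcripts, with 270 and 242 reads against 390 and 376 (1.59, 1.36 to 1.87), while its coding transcripts had 36 and 42 against 51 and 33 (1.15, 0.723 to 1.82). Rps29, a small zinc-binding protein, had 173 and 177 against 209 and 215 (1.29, 1.05 to 1.58). The intervals of the other 5 included 1. Rpl3l, a muscle paralog of Rpl3, rested on 8 reads in each control file and 14 and 12 in the sleep-deprived files (1.73, 0.664 to 4.81).

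Rpl22, the gene that carries the tag, lies at chr4:152325742-152334071 on the plus strand of GRCm38. It had 1365 and 1370 reads in control and 918 and 898 after sleep deprivation, a ratio of 0.707 (0.649 to 0.769) that was not called. Its coding transcripts behaved unequally. The form of 474 bases had 478 and 495 reads in control and 142 and 150 after sleep deprivation, a ratio of 0.320 (0.264 to 0.385). The forms of 2048 and 2051 bases, summed because the estimate moved reads between them from file to file, had 734 and 729 against 668 and 654 (0.962, 0.865 to 1.07). Among its noncoding forms, the processed transcripts Rpl22-206 at 0.650 (0.437 to 0.959) and Rpl22-207 at 0.497 (0.305 to 0.790) were also lower, on fewer reads (72 and 60 in control). With the length offset the ratio of Rpl22 was 0.475 and passed 2-fold. Whether a read came from the tagged or the untagged allele cannot be told from these files.

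Its paralog Rpl22l1, whose protein can replace Rpl22 in the ribosome, was at 537 and 533 reads in control and 546 and 544 after sleep deprivation (1.08, 0.960 to 1.22). Of its reads on coding or retained-intron transcripts, the retained-intron ones made up 93.9% in control and 88.6% after sleep deprivation. Its coding transcripts had 27 reads in each control file and 53 and 67 in the sleep-deprived files, a ratio of 2.37 (1.48 to 3.88). Rpl7l1, a homolog of Rpl7, was at 0.922 (0.801 to 1.06) beside 0.491 (0.461 to 0.523) for Rpl7. With the length offset Rpl7l1 was on the other side of 1, at 1.33. Rps27l, a p53 target, was at 0.709 (0.519 to 0.965) beside 0.565 (0.415 to 0.764) for Rps27. Of Rps27 reads on coding or retained-intron transcripts 99.2% were retained-intron ones in control, with a mean of 1 coding read in each group, so the pair does not compare coding messages. Its near-identical copy Rps27rt, also annotated as protein coding, held 811 reads in control and 404 after sleep deprivation. How the model divided reads between Rps27 and this copy was not tested. Of the 5 measured paralogs, including the processed pseudogene Rps4l that is no member, 0 were called, against 2 of the 7 partner genes (Rpl7 and Rps4x).

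Levels between genes were compared on the authors' TPM, which corrects for transcript length. The control median over the 80 measured genes was 376 TPM and the sleep-deprived median 239 TPM, beside 17.3 and 20.4 TPM over all measured genes. Rps24 and Rpl26 stood highest in control at 2302 and 2284 TPM, followed by Rpl14 at 1158 and Rps25 at 1088. After sleep deprivation these were at 1070, 754, 441 and 463 TPM. The lowest measured genes in control were Rpl3l at 1.09 and Rpl7l1 at 21.97 TPM. Rpl7l1 had 33.8 TPM after sleep deprivation, above control, while its CPM ratio was below 1. The order of the 80 genes was much alike in both libraries, with a Spearman coefficient of 0.903 and a Pearson coefficient of 0.949 (log2 TPM) across genes, which are not independent replicates. Estimated levels of these genes, paralogs included, thus spanned a wide range. For many of them reads are also shared with copies, as described below.

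The difference between the libraries lay in protein-coding transcripts more than in retained-intron transcripts. A retained-intron transcript is an annotated form that keeps an intron and is not assigned a coding sequence. Reads on protein-coding transcripts of the 82 genes numbered 117485 in control and 54203 after sleep deprivation, a ratio of 0.491 (0.486 to 0.496). Reads on retained-intron transcripts numbered 15884 and 13958, a ratio of 0.935 (0.914 to 0.957). Transcripts annotated for nonsense-mediated decay had 2206 and 1026 reads (0.495, 0.459 to 0.533). Retained-intron forms thus took 11.2% of the reads of these genes in control and 19.2% after sleep deprivation.

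Gene by gene, 63 of the 82 had both classes annotated and at least 20 reads on them together in each library. Of the 62 with a mean of at least 20 coding reads, 28 were called lower on coding transcripts alone, against 3.36% of all genes with both classes, and 1 was called higher (Rpl22l1), against 5.87%. On retained-intron transcripts 6 of 55 were called lower, against 4.14%, and 3 of 55 higher, against 22.4%. The median ratio was 0.529 for coding and 1.08 for retained-intron transcripts. Over all genes with both classes these medians were 1.02 and 1.35, so that ribosomal protein genes lay below the general level in both classes.

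**Figure D2:**
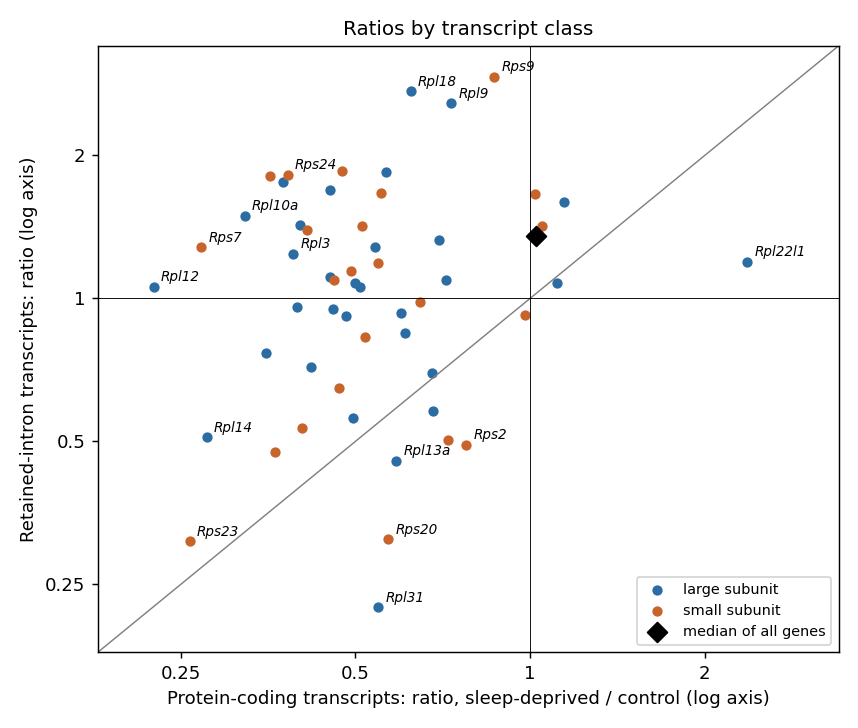
Ratio of reads on retained-intron transcripts (vertical, log axis) against the ratio on protein-coding transcripts (horizontal, log axis), for ribosomal protein genes with a mean of at least 20 reads in each class. Most points lie above the diagonal and left of 1, while the diamond marks the medians of all genes, 1.02 and 1.35.

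The share of retained-intron reads among both classes was 14.6% and 14.2% in the control files and 24.7% and 24.4% in the sleep-deprived files for these 63 genes. For the other 6997 genes with both classes it was 17.2% in control and 20.1% after sleep deprivation. The share was higher after sleep deprivation in 51 of 63 ribosomal protein genes, against 61.7% of all such genes. It was at least 10 percentage points higher in 19 of 63, against 12.5%, and at least 10 points lower in 2, against 7.68%. A share at least 10 points higher was found in 14 of 36 large-subunit and 5 of 27 small-subunit genes. The pooled share went from 13.2% to 24.9% in the large and from 16.7% to 23.99% in the small subunit. Measured on TPM in place of reads, 16 of the 63 genes gained at least 10 points, against 21.05% of all such genes. The contrast with other genes was thus smaller on TPM. Reads given to near-identical copies of a gene, described below, were in neither class of that gene.

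**Figure D3:**
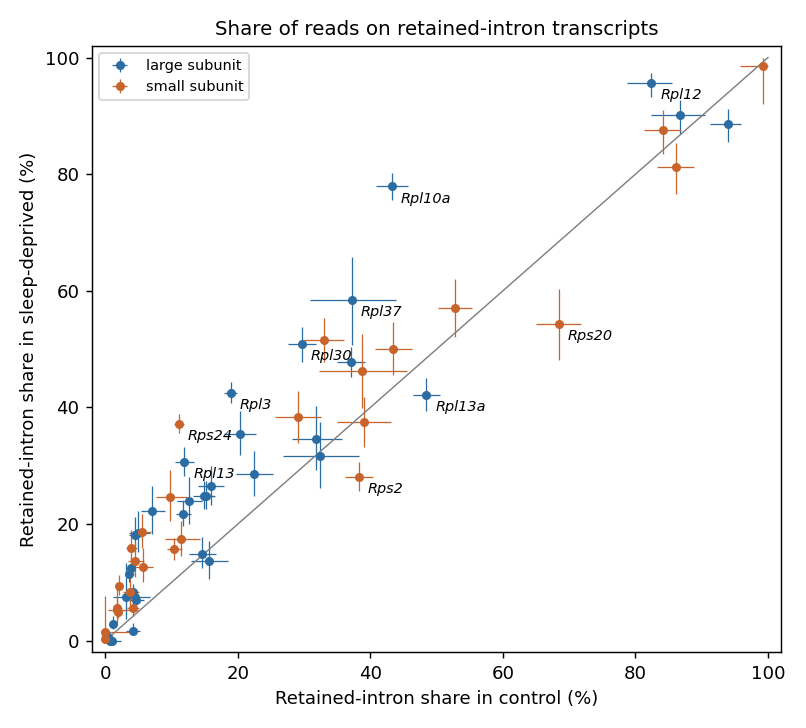
Percentage of reads on retained-intron transcripts in control (horizontal) and sleep-deprived (vertical) libraries, 1 point per gene with 95% binomial intervals. Rpl10a stands farthest above the diagonal and Rps20 farthest below it.

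Rpl10a showed the largest gain. Its coding transcripts had 943 and 985 reads in control and 288 and 296 after sleep deprivation (0.322, 0.282 to 0.368), while its retained-intron transcripts had 756 and 713 against 1051 and 1011 (1.49, 1.36 to 1.64). The retained share went from 43.3% (40.9 to 45.7, exact binomial 95% interval) to 77.9% (75.6 to 80.1). The sum of the gene, at 0.860 (0.801 to 0.923), hid opposite differences in the 2 classes. Rps24 followed, with 5837 and 5789 coding reads against 2097 and 2078 (0.382, 0.363 to 0.402) and 713 and 732 retained-intron reads against 1239 and 1230 (1.82, 1.66 to 1.998). Its share went from 11.05% to 37.2%. Rpl3, whose protein is known to act on splicing of its own message, went from 18.9% to 42.5%, with coding reads of 4566 and 4574 against 1698 and 1654 (0.390, 0.369 to 0.413). Rpl30, whose yeast counterpart holds back splicing of its own transcript, went from 29.6% to 50.9%. Rpl37 went from 37.2% to 58.4% and Rpl13 from 11.9% to 30.7%. Retained-intron reads had ratios of 1.24 (1.14 to 1.35) in Rpl3 and 1.85 (1.57 to 2.18) in Rpl13. In Rpl30 and Rpl37 they were at 1.11 (0.986 to 1.25) and 1.28 (0.949 to 1.73), intervals that included 1. Coding reads of Rpl30 and Rpl37 were at 0.452 and 0.540, so their shares moved mainly through lower coding reads.

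The introns concerned are shown at their splice sites for 4 of these genes. For Rpl10a the retained form also begins further downstream in the gene than the coding form, so the intron is not their only difference. Each line gives the last 10 exon bases and the first 14 intron bases, 5′ to 3′ on the gene's strand, with the first 6 intron bases in capitals. Sequences are from the GENCODE M21 transcripts on GRCm38.
Rpl10a intron 4 donor: aagaagctggGTAGGTggggctca
Rps24 intron 4 donor: tggcaaaaagGTATGGttcatggc
Rpl3 intron 3 donor: ataagaactgGTAAGAggctcttg
Rpl30 intron 3 donor: attgacccagGTATGTttttaaaa
The matching 3′ ends follow, with the last 20 intron bases and 8 exon bases, and the last 2 intron bases in capitals.
Rpl10a intron 4 acceptor: tgagtgtctgtgtcttctAGctaagaag
Rps24 intron 4 acceptor: ctttcctgccactgattcAGtgagtgga
Rpl3 intron 3 acceptor: actgtgctctgctcctgaAGgcacaagt
Rpl30 intron 3 acceptor: actattattttattttctAGgtgattct

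The Rpl10a intron lies at chr17:28329523-28330524 and is the fourth of 5 introns of transcript Rpl10a-212. It is kept whole in Rpl10a-204, which had 523 and 502 reads in control and 640 and 607 after sleep deprivation (1.295, 1.15 to 1.46). The Rps24 intron (chr14:24493494-24495429) and the next one (chr14:24495450-24495774) are both kept in Rps24-204, which had 656 and 649 reads against 1208 and 1201 (1.96, 1.78 to 2.16). The coding form Rps24-202 had 3804 and 3750 against 1303 and 1302 (0.367, 0.344 to 0.391). The Rpl3 intron (chr15:80081032-80081614, minus strand) is kept in Rpl3-204, with 731 and 699 reads against 988 and 1018 (1.49, 1.35 to 1.65). Another Rpl3 form of this class, Rpl3-206, went the other way, with 347 and 343 reads against 219 and 226 (0.688, 0.579 to 0.816). The Rpl30 intron (chr15:34440605-34441231, minus strand) is kept with the intron before it in Rpl30-203, with 515 and 512 reads against 556 and 561 (1.16, 1.03 to 1.31). These forms share exons with the coding forms, so their reads are model estimates and not counts of reads inside the intron.

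A few genes went the other way. The retained share of Rps20 was 68.5% in control and 54.3% after sleep deprivation, with retained-intron reads of 529 and 460 against 148 and 142 (0.312, 0.257 to 0.376). That of Rps2 was 38.2% and 28.1%, and that of Rpl13a, a gene with a known role outside the ribosome in silencing inflammatory messages, 48.4% and 42.1%. In Rpl13a most of this class was the short form Rpl13a-213, with 976 and 970 reads against 273 and 286 (0.306, 0.267 to 0.350). In Rps23 both classes were lower, at 0.259 (0.218 to 0.307) for coding and 0.308 (0.265 to 0.357) for retained-intron transcripts.

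Ribosomal protein messages are short, and the summed reads of shorter coding transcripts were lower in general. For genes outside the group, coding transcripts under 500 bases had a summed ratio of 0.680 (0.669 to 0.691), those of 500 to 1000 bases 0.676 (0.673 to 0.679), those of 1000 to 2000 bases 0.848 (0.846 to 0.851) and those over 2000 bases 1.06 (1.06 to 1.06). Coding transcripts of ribosomal protein genes had 0.519 (0.502 to 0.536), 0.477 (0.471 to 0.483), 0.463 (0.453 to 0.472) and 0.852 (0.815 to 0.891) in the same classes. They lay below the other genes in each of the 4 length classes, and the gap was widest from 1000 to 2000 bases. Summed over whole genes, the 478 other measured coding genes with a mean effective length under 500 bases had 10.7% called lower and a median ratio of 0.884. Among the 47 ribosomal protein genes of that length 14 were called lower (29.8%), with a median ratio of 0.552. Of the 1690 other genes of 500 to 1000 bases 4.91% were called lower, with a median ratio of 0.991. Over whole genes the lower level was thus seen only under 500 bases. Among the 26 ribosomal protein genes of 500 to 1000 bases 8 were called lower (30.8%), with a median ratio of 0.623. The part of length in the result was not tested beyond these values.

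**Figure D4:**
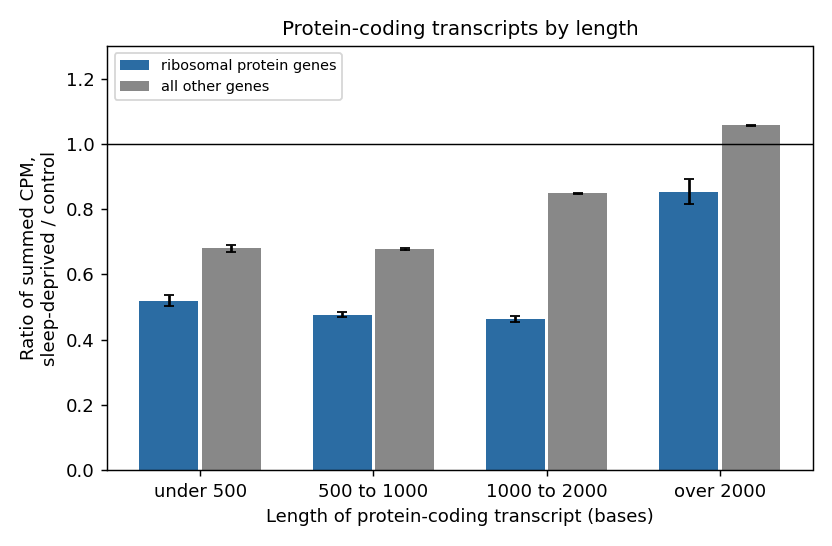
Ratio of summed CPM, sleep-deprived over control, of protein-coding transcripts in 4 length classes, for ribosomal protein genes (blue) and all other genes (grey), with 95% counting intervals. The blue bar is below the grey bar in each class, and both are highest over 2000 bases.

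Ribosomal protein genes have many processed copies in the genome, and reads from near-identical sequences are divided by a model. Of the 80 measured genes 69 had at least 1 other gene in the files that shared 50% or more of the stretches of 31 bases of either. For the median gene 45.5% of its stretches occurred in some other gene. Adding the reads of such copies gave 29 of 80 called lower, against 5.69% of all measured genes, and 0 higher. The median log2 ratio was −0.86. The ratio moved by more than 1.5 times in 5 genes.

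Rpl10 was the clearest case. Its copy Rpl10-ps3 had 1372 reads in control and 627 after sleep deprivation, more than Rpl10 itself at 295 and 425. Together with its copies Rpl10 had a ratio of 0.678 (0.627 to 0.732) in place of 1.53, so its direction reversed. Rpl12 went from 0.954 to 0.553 (0.509 to 0.600) with Gm10275 and its other copies, and Rpl11 from 0.870 to 0.532 (0.484 to 0.583). Rpl28 went from 1.10 to 0.905 (0.813 to 1.01). Rps27a, which is made as a fusion with ubiquitin, went from 0.692 to 0.400 (0.373 to 0.428), since its copies Gm8430 and Rps27a-ps2 had 834 and 473 reads in control and 0 and 7 after sleep deprivation. Rps6, the target of S6 kinase, went from 0.628 to 0.471 (0.445 to 0.498), with 1023 reads on Rps6-ps4 in control and 0 after sleep deprivation. In the other direction Rpl29 went from 0.365 to 0.633 (0.600 to 0.667), since part of its sequence lies in Uimc1, a gene with 1517 and 1440 reads of its own. A ratio of a single gene of this family is therefore uncertain where its copies hold many reads, as for these genes other than Rpl29. Of the 1529 control and 1446 sleep-deprived reads added to Rpl29, all but a few were those of Uimc1, a separate protein-coding gene. The value of 0.633 thus includes the reads of a different gene.

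**Figure D5:**
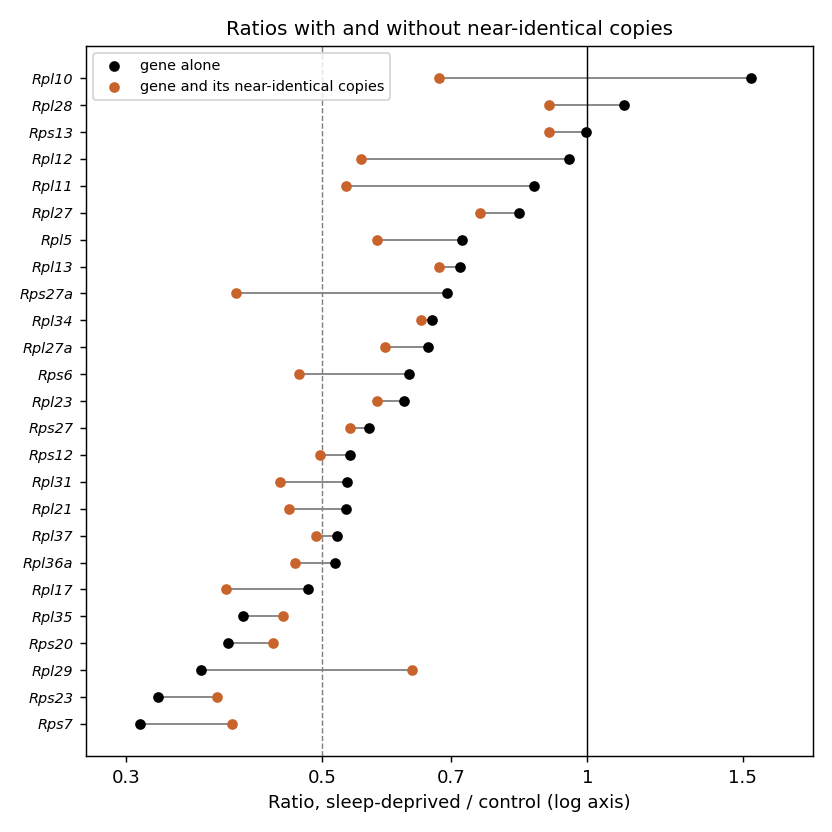
Ratio of sleep-deprived over control (log axis) for the 25 genes whose near-identical copies held at least 100 reads in both libraries together, for the gene alone (black) and with its copies (orange). The ratio was lower with the copies in 20 genes and higher in 5, and Rpl10 crossed from 1.53 to 0.678.

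The start of the transcripts was examined because ribosomal protein genes are known for pyrimidine-rich starts. Of the 82 genes 62 matched a promoter entry of RefSeq on GRCm38.p6. A run of at least 5 C or T bases on the gene's strand, beginning with C within 5 bases of an annotated start, was found in 29 of 62 (46.8%), against 21.2% of all 27025 genes with a promoter. A run of at least 8 bases was found in 21 (33.9%), against 5.17%. Among measured members the median ratio was 0.661 for the 29 with a run (6 called lower) and 0.620 for the 31 without one (8 called lower), so the median was slightly lower in the genes without an annotated run.

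The stretches from 45 bases before to 15 bases from the annotated start are shown for the genes with the lowest and highest ratios, with a run of at least 5 bases in capitals where there was one. Rpl29 is among the lowest and is only named.
Rpl26 (chr11:68901521-68901580, plus strand): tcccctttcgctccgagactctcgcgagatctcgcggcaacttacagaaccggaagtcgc
Rpl14 (chr9:120571472-120571531, plus strand): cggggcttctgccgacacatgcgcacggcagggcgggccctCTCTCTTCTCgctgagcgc
Rps7 (chr12:28635939-28635998, minus strand): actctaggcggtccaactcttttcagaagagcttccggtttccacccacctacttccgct
Rps23 (chr13:90923077-90923136, plus strand): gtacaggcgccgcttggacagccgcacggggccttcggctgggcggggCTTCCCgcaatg
Rps25 (chr9:44407669-44407728, plus strand): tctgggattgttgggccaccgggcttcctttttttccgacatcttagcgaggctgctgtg
Rpl10 (chrX:74270771-74270830, plus strand): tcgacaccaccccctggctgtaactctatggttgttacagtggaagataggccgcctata
Rpl3l (chr17:24727781-24727840, plus strand): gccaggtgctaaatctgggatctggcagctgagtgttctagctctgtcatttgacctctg
Rpl14 has a run of 10 bases across its start and Rps23 one of 6. The other lowest genes shown have none of at least 5 bases that begins within 5 bases of the annotated start. The Rpl14 run is counted from a C within that distance, and further C and T bases lie directly before it. A match or its absence describes these letters alone.

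Genes that work with the ribosome but fall outside the symbol rule were set beside it. Rpsa, whose protein sits near the message exit, was called lower, with 3853 and 3861 reads against 1292 and 1286 (0.356, 0.334 to 0.379). Rpl36al and Fau were at 0.511 (0.436 to 0.597) and 0.669 (0.613 to 0.730). Rack1, a signalling scaffold on the small subunit, was at 0.974 (0.920 to 1.03). Of 15 other genes with known TOP messages, mostly translation factors, 4 were called lower and 0 higher, with a median log2 ratio of −0.83. The most abundant was Eef1a1, which brings tRNA to the ribosome, with 12916 and 12871 reads against 6670 and 6643 (0.549, 0.533 to 0.566). Naca, part of the nascent chain-associated complex, had the lowest ratio at 0.459 (0.430 to 0.490). Hnrnpa1, a splicing regulator, was above control at 1.76 (1.70 to 1.83) and was not called.

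The proteins of the mitochondrial ribosome are a second family of similar size, with 78 measured genes. Of these 1 was called lower and 1 higher, with a median log2 ratio of −0.11 and a summed ratio of 0.976 (0.960 to 0.992). Of 28 genes of ribosome biogenesis 0 were called in either direction, with a median of −0.10 and a summed ratio of 1.02 (0.997 to 1.03). Of 14 regulators of TOP messages 0 were called lower and 1 higher, with a median of 0.23. Mtor, the kinase of the pathway, was at 1.43 (1.35 to 1.51), Larp1, which binds the TOP tract, at 1.07 (1.004 to 1.13), and the called gene Eif4ebp1, which restrains the cap-binding factor, at 3.73 (1.45 to 11.3) on 6 reads in each control file and 21 in each sleep-deprived file.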

How the data were processed

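Each file held the authors' Salmon estimates for 116546 transcripts. The submitters' processing notes name Salmon, DESeq2 and the build mm10. Salmon's version and transcript set are not given in those notes or other sources used here. The estimated counts (NumReads) were deposited by the authors as fractional values without normalization. TPM, deposited in the same files per the file headers, is the authors' length-scaled abundance. Length and effective length are, per the file headers, in bases.

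Transcripts were matched by identifier to GENCODE M21 (99.4%) and summed to genes. Unmatched transcripts, with 0.339% to 0.366% of reads, were left out. The mean of the 2 files of a group was rounded, filtered with filterByExpr (minimum count 10) and TMM-scaled with edgeR 4.0.16 (R 4.3.3). The size rule of at least 2-fold with a 95% interval that excluded 1 replaced the planned edgeR quasi-likelihood test, since each group held 1 independent sample. A library under 3 reads was set to 3 for the fold. The rule was tested on simulated data. Retained-intron and coding ratios used the same scaling and a mean of at least 20 reads. Promoter sequences are RefSeq's on GRCm38.p6. Protein sequences were not used here.

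Members and lists were chosen with earlier results of these data known. Members named are the lowest and highest ratios of each subunit, the highest and lowest TPM, the stalk genes, Rpl22, the paralogs and the largest changes of retained-intron share. The files of a group are not independent, so spread between mice was not measured. Alternatives covered scaling, filters, transcript class, a length offset, near-identical copies, the fold and each file left out. The list of TOP snoRNA host genes was not analysed here. Some genes of the lists are not reported here.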

Additional observations from a re-analysis of the deposited data

How the results depend on the processing

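Under every alternative run, the median log2 ratio and the summed ratio of the ribosomal protein genes stayed on the lower side, and 19 of the 23 genes called lower kept the call in all 12 alternatives to scaling, filter, transcripts or files. Rpl24, Rpl29, Rpl6 and Rps20 lost it in at least 1. For Rpl29 this was the run with near-identical copies, where nearly all the added reads were those of Uimc1. In the order all measured members, large subunit and small subunit, the median log2 ratio was −0.773, −0.743 and −0.908 with scaling by library totals (summed ratio 0.5293), −0.742, −0.712 and −0.877 with upper-quartile scaling (0.5409), and −0.767, −0.717 and −0.879 when a mean CPM of 5 was required (0.5401). It was −0.868, −0.894 and −0.842 with the length offset (0.5282) and −0.857, −0.792 and −0.884 with near-identical copies added (0.5343). With protein-coding transcripts alone it was −0.880, −0.900 and −0.856 (0.4910), with 34 genes lower and 1 higher. The order of the subunit medians turned under the length offset and with protein-coding transcripts alone. At 1.5-fold, 49 genes were lower and 1 higher, against 13.6% of all genes lower. At 3-fold 3 of 80 were lower, against 2.42% of all genes, so that the members stood little apart from the background at that size. Leaving out each file in turn gave −0.708 to −0.690 for the large and −0.860 to −0.843 for the small subunit. Such runs could differ little, here or for calls and shares, since the 2 files of a group were closer than counting noise allows. The gain in retained-intron share was 10.18 points as reported, 7.299 as a share of TPM, and 10.01 to 10.34 with each file left out. On TPM 16 of 63 members gained at least 10 points, against 21.05% of all genes, a smaller contrast than on reads (19 of 63 against 12.54%). No paired analysis was possible because the 2 files of a group were averaged as 1 sample, which leaves no pairs. For the same reason the planned edgeR and DESeq2 tests were not run. Genes with few reads, such as Rpl3l, have intervals too wide to show a 2-fold difference.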
